A study of Homo sapiens with 12 samples.

Results

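The 10 genes described here, all of the G1 checkpoint, were followed through the knockdown of FOXA1 or TRIM28 in LNCaP cells: the D cyclins CCND1, CCND2 and CCND3, their kinase partners CDK4 and CDK6, the inhibitors CDKN1B, CDKN1C, CDKN2C and CDKN2D, and the retinoblastoma gene RB1. They were listed by gene symbol, as regulators of G1, with earlier results of these data known, and all 10 were found among the 60835 gene symbols of the tables. LNCaP, spelled LACAP in the sample labels, is an established line of human prostate cancer cells that grow in response to androgen. Cells received either negative control shRNA or shRNA against 1 of the targets, which gave 4 groups of 3 biological replicates: the control for FOXA1 (labelled control shRNA), the FOXA1 knockdown (shRNA-FOXA1), a separate control for TRIM28 (also control shRNA) and the TRIM28 knockdown (shRNA-TRIM28). FOXA1 is a pioneer factor of luminal prostate chromatin, and TRIM28 is the corepressor recruited by KRAB zinc finger proteins. All libraries carry the same batch label, and neither the hairpin sequences nor the time after knockdown is given in the sources used here.

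D cyclins activate CDK4 and CDK6, which begin the phosphorylation of the retinoblastoma protein and so release E2F factors to switch on genes of DNA replication. INK4 inhibitors, among them p18 (CDKN2C) and p19 (CDKN2D), bind CDK4 and CDK6 directly, whereas the CIP/KIP inhibitors p21 (CDKN1A), p27 (CDKN1B) and p57 (CDKN1C) hold back cyclin E with CDK2 and also associate with cyclin D complexes. In luminal prostate cells p27 is a well-known brake on G1, and its protein is set largely by degradation, which RNA counts do not show.

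Libraries held 12256092 to 15152890 counts. FOXA1 stood at 29.5%, 28.7% and 29.2% of its control mean in its knockdown (CPM, counts scaled to library size with TMM factors), and TRIM28 at 31.9%, 28.2% and 13.96% in its own. The TRIM28 knockdown libraries also held less FOXA1, with 47.1%, 42.6% and 70.0% of the control level. In the FOXA1 knockdown TRIM28 stood at 87.9%, 89.7% and 86.8% of its control level, a small fall that passed (log2 fold change -0.19, SE 0.05, edgeR adjusted p = 0.00221). Luminal prostate markers were detected in every library: KLK3, which encodes prostate-specific antigen, had 975 to 1249 counts in the controls, 1763 to 1900 in the FOXA1 knockdown and 369 to 614 in the TRIM28 knockdown. The luminal keratin gene KRT18 had 2318 to 2912, 2655 to 2979 and 1611 to 2285 counts in those groups. Replicate 3 of the TRIM28 knockdown stood apart: its counts differed from those of replicates 1 and 2 with a chi-square per degree of freedom of 22.6 and 20.4, against 3.73 between the other two and 2.94 to 5.73 within the other groups. Its 6 stromal markers summed to 435 CPM, against 29.7 to 40.1 CPM in the other 11 libraries, and COL3A1 had 2320 counts there against 29 and 82 in replicates 1 and 2. None of those 6 markers was at 0 in any library. The other marker lists were low: leukocyte markers summed to 0.643 to 2.14 CPM over all libraries. Basal epithelial markers summed to 0.31 to 1.01 CPM in the FOXA1 controls and 2.97 to 3.54 CPM in the FOXA1 knockdown, and to 0.322 to 0.438 CPM and 0.306 to 2.30 CPM in the TRIM28 control and knockdown. Endothelial markers summed to 4.99 to 8.41 CPM and 4.26 to 7.07 CPM in the FOXA1 groups, and to 5.33 to 7.79 CPM and 10.5 to 10.6 CPM in the TRIM28 control and knockdown. The part of these shifts in the results was not tested. For the members, effects fitted in the TRIM28 knockdown are given with and without replicate 3. In bulk RNA, fewer cells expressing a gene and less of its RNA per cell cannot be told apart.

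In the 6 control libraries the members spanned more than 3 orders of magnitude of FPKM, the read count scaled by gene length and library total. CCND1 (ENSG00000110092, GRCh38 chromosome 11, 69641156 to 69654474, plus strand) was the highest at 64.2 ± 2.51 FPKM (SD, n = 6), and CDK4 (ENSG00000135446, chromosome 12, 57747727 to 57756013, minus strand) followed at 59.1 ± 3.85. The ranges of CCND1 and CDK4 overlapped between libraries, while within each of the 6 control libraries CCND1 was the higher, by a ratio of 1.01 to 1.22. CDKN1B (ENSG00000111276, chromosome 12, 12685498 to 12722369, plus strand) came next at 40.5 ± 1.88. RB1 (ENSG00000139687, chromosome 13, 48303744 to 48599436, plus strand), at 14.7 ± 0.528, overlapped CCND3 (ENSG00000112576, chromosome 6, 41934934 to 42050357, minus strand), at 12.46 ± 1.39. The INK4 genes CDKN2C (ENSG00000123080, chromosome 1, 50960745 to 50974634, plus strand) and CDKN2D (ENSG00000129355, chromosome 19, 10566460 to 10569059, minus strand) were level with each other at 6.69 ± 0.805 and 6.59 ± 0.766. CDKN1C (ENSG00000129757, chromosome 11, 2883213 to 2885775, minus strand), an imprinted gene, stood at 1.95 ± 0.303, and CDK6 (ENSG00000105810, chromosome 7, 92604921 to 92836573, minus strand) at 1.25 ± 0.170. CCND2 (ENSG00000118971, chromosome 12, 4269771 to 4305353, plus strand) was near the floor of the assay, with 2 to 4 counts per control library. The FOXA1 and TRIM28 controls did not differ for any of the 9 members that could be tested (lowest adjusted p = 0.992), nor did 1 of all 14839 genes pass in that comparison (0%; 635 genes had an unadjusted p under 0.05, and DESeq2 also called 0). Read strand in counting is not given, so reads of the opposite-strand neighbours LTO1 (CCND1), CCND2-AS1 (CCND2), TSPAN31 and MARCH9 (CDK4), AC002454.1 (CDK6), GPR19 (CDKN1B), and LPAR6 and RCBTB2 (RB1) cannot be told apart from the members' own where they overlap.

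**Figure D1:**
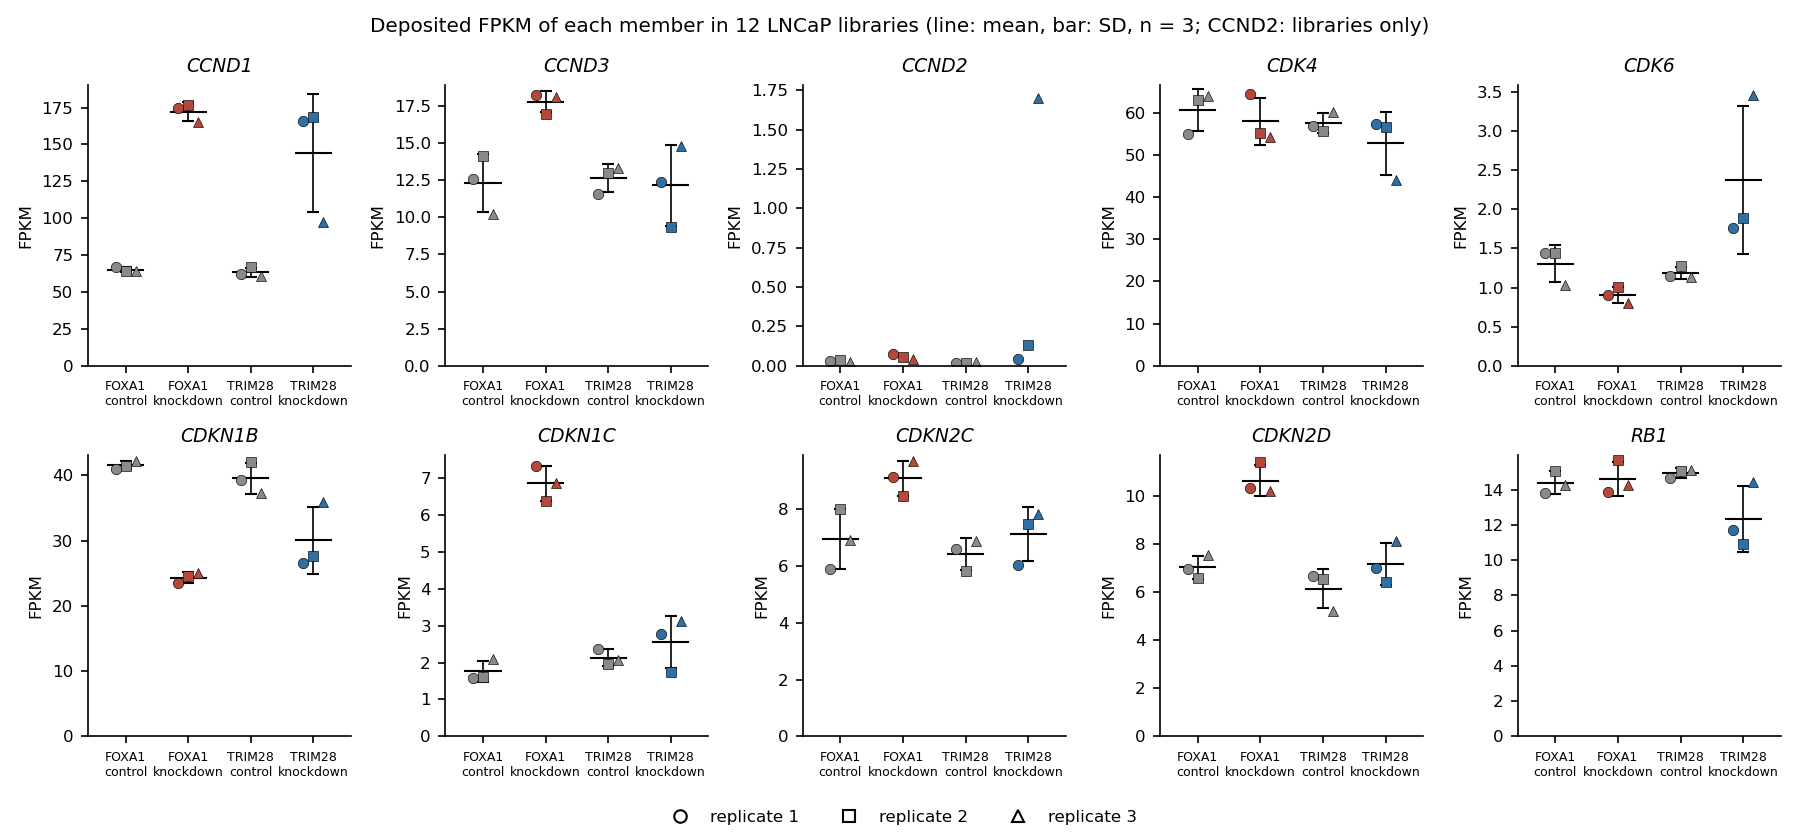
Deposited FPKM (vertical axes, from 0) of the 10 members in the 12 libraries, by group, with 1 symbol per replicate, a line for the mean and a bar for the SD (n = 3 per group; CCND2 is drawn without mean or bar). CCND1 lies at 60.8 to 66.9 in the controls and 165 to 177 in the FOXA1 knockdown, and replicate 3 of the TRIM28 knockdown (97.7) lies below the other two.

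Promoter sequences from RefSeq (GRCh38.p14) were matched for 7 of the 10 members, as 12 windows of 250 bases before to 50 bases after a transcript start. CCND1, CCND2 and CDKN1C had none. The letters searched, on both strands, were TGTTTAC (forkhead, the motif class FOXA factors recognise), TTTCCCGC and TTTGGCGC (E2F), TGACTCA (AP-1), TGACGTCA (CRE) and GGGCGG (Sp1); none of these contains another. The forkhead letters occurred in 1 member window, that of CCND3, and in 3.42% of all 35116 windows. No member window held either E2F string, the AP-1 string or the CRE string, which occurred in 1.63%, 0.652%, 4.95% and 1.85% of all windows. The Sp1 string was found in 8 of the 12 member windows, from 6 members, against 44.95% of all windows. The stretches shown are the forkhead match of CCND3, the cluster of 3 Sp1 matches of CDK6 and the Sp1 match of CDKN2D, each read 5′ to 3′ on the gene's own strand with the matched letters in capitals (GTAAACA and CCGCCC are the reverse complements).
CCND3, chr6:42048674-42048700, minus strand: cgcggactttGTAAACActtcgccact
CDK6, chr7:92836625-92836687, minus strand: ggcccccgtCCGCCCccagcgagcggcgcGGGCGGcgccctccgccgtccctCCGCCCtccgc
CDKN2D, chr19:10569100-10569149, minus strand: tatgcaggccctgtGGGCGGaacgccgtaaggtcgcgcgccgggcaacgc
The CCND3 match begins 2 bases before the annotated start, and its stretch overlaps an exon of several CCND3 transcripts in the GENCODE annotation, while the CDK6 and CDKN2D stretches lie upstream of their starts and overlap no exon of it. These are matches of letters only.

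The comparison of the FOXA1 knockdown with its control asked which members respond to loss of FOXA1. CCND1, CCND3, CDKN1C, CDKN2C and CDKN2D rose, CDK6 and CDKN1B fell, and CDK4 and RB1 did not pass the test. That made 7 of the 9 members tested, where 52.4% of all 14953 genes tested passed, 26.1% upward and 26.3% downward. CCND2, at 3, 4 and 2 counts in the controls and 8, 5 and 4 in the knockdown, was too low for the main test.

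Among the D cyclins, CCND1, which encodes cyclin D1, had 66.9, 63.9 and 64.5 FPKM in the controls and 175, 177 and 165 FPKM in the FOXA1 knockdown. All 3 knockdown libraries lay far above all 3 controls. The fitted rise was 2.62-fold (log2 fold change 1.39, SE 0.04; edgeR adjusted p = 1.35e-20). CCND3, which encodes cyclin D3, went from 12.6, 14.1 and 10.2 FPKM to 18.2, 17.0 and 18.1 FPKM, again with no overlap between groups. Its rise was smaller, at 1.43-fold (log2 fold change 0.51, SE 0.09, adjusted p = 2.79e-05).

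The kinase genes did not follow the cyclins. CDK4 had 54.9, 63.0 and 64.0 FPKM in the controls and 64.3, 55.3 and 54.3 FPKM in the knockdown, and the groups overlapped. Its log2 fold change was -0.08 (SE 0.07, adjusted p = 0.369), with a 95% confidence interval of -0.22 to 0.07. CDK6, the close paralogue of CDK4, went from 1.44, 1.44 and 1.04 FPKM to 0.911, 1.01 and 0.803 FPKM, so that the highest knockdown library lay just under the lowest control. The fall in CDK6 (log2 fold change -0.54, SE 0.14, adjusted p = 0.00138) was lost in a joint fit of the 12 libraries (adjusted p = 0.0953) or in limma on log2 FPKM (0.12 and 0.124 with pseudocounts of 0.1 and 1).

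The CIP/KIP inhibitors moved in opposite directions. CDKN1B, which encodes p27, stood at 41.0, 41.4 and 42.2 FPKM in the controls and 23.4, 24.6 and 24.99 FPKM in the knockdown. The replicates of each group lay close together and far from the other group, and the fall had a log2 fold change of -0.79 (SE 0.05, adjusted p = 1.44e-13). CDKN1C, which encodes p57, went from 1.59, 1.62 and 2.09 FPKM to 7.33, 6.37 and 6.86 FPKM. Every knockdown library was above every control, and the 3.85-fold rise (log2 fold change 1.95, SE 0.17, adjusted p = 3.33e-11) was the largest change among the members tested in this knockdown.

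Both INK4 members rose. CDKN2C, which encodes p18, had 5.91, 8.02 and 6.93 FPKM in the controls and 9.16, 8.47 and 9.70 FPKM in the knockdown. The groups did not overlap, but the rise of 0.37 on the log2 scale (SE 0.10, adjusted p = 0.00355) was lost when a fold change beyond 1.2 was required (adjusted p = 0.142). CDKN2D, which encodes p19, went from 6.98, 6.59 and 7.53 FPKM to 10.3, 11.4 and 10.2 FPKM, a rise of 0.58 (SE 0.12, adjusted p = 0.000213) with no overlap. RB1, whose protein the cyclin D kinases phosphorylate, had 13.8, 15.1 and 14.3 FPKM in the controls and 13.9, 15.7 and 14.3 FPKM in the knockdown, and the libraries of the groups were interleaved. Its log2 fold change was 0.01 (SE 0.06, adjusted p = 0.939), with a 95% confidence interval of -0.13 to 0.14. Leaving out any 1 library changed no call on a member in the FOXA1 knockdown.

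**Figure D2:**
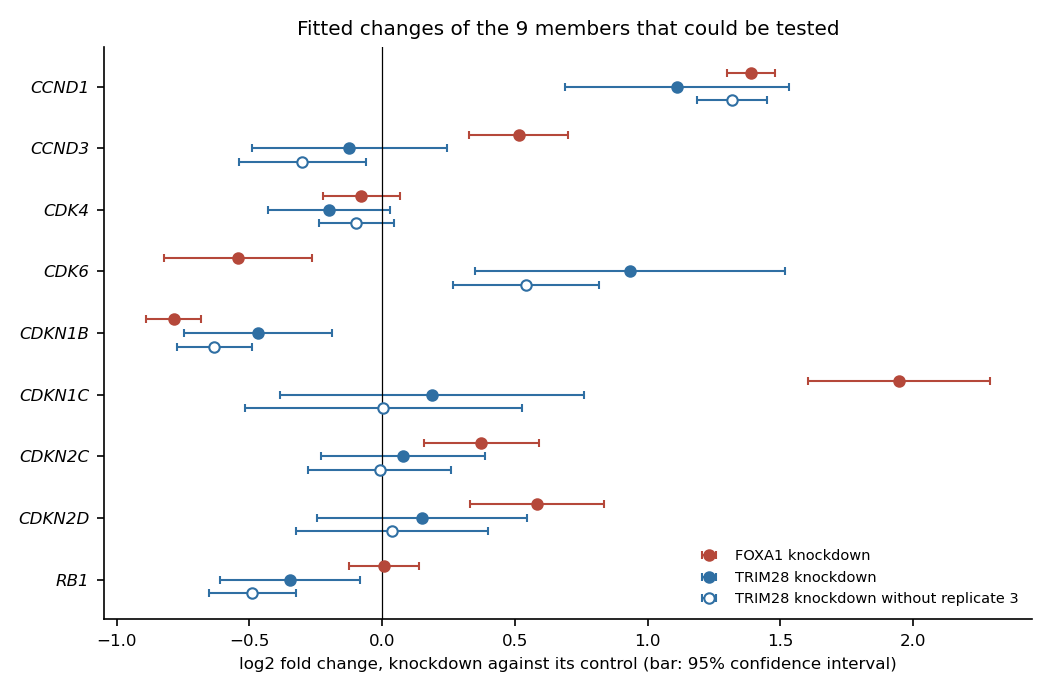
Fitted log2 fold changes (horizontal axis) of the 9 members that reached the count minimum, in the FOXA1 knockdown, the TRIM28 knockdown and the TRIM28 knockdown without replicate 3. Bars are 95% confidence intervals. CCND1 is raised and CDKN1B lowered in both knockdowns, while CDKN1C is at 1.95 in the FOXA1 knockdown and at 0.19 in the TRIM28 knockdown.

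The comparison of the TRIM28 knockdown with its control asked the same of TRIM28. CCND1 and CDK6 rose, CDKN1B fell, and the other 6 members tested did not pass. That made 3 of 9 members, where 26.7% of all 14981 genes tested passed, 13.3% upward and 13.3% downward. With library size alone as the scaling, 63.4% of the calls over all genes were upward, against 49.9% with TMM, but the members called were the same in number (2 up, 1 down). Without replicate 3 of the knockdown 2 members rose and 3 fell, where 45.8% of all genes passed. CCND3 and RB1 joined the members that fell.

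CCND1 had 62.0, 66.9 and 60.8 FPKM in the controls and 166, 169 and 97.7 FPKM in the TRIM28 knockdown. All knockdown libraries lay above the controls, with replicate 3 between the controls and the other two. The fitted rise was 2.16-fold (log2 fold change 1.11, SE 0.18, adjusted p = 0.00442) and 2.49-fold without replicate 3 (log2 fold change 1.32, SE 0.07, adjusted p = 1.00e-18), and it passed whichever library was left out. Replicate 3 was the library with the least TRIM28 and the most FOXA1 of this knockdown, and the part of the lower FOXA1 level in the CCND1 result was not tested. CCND3 had 11.5, 13.0 and 13.3 FPKM in the controls and 12.4, 9.35 and 14.8 FPKM in the knockdown, where replicate 2 was the lowest and replicate 3 the highest of the 6 libraries. Its log2 fold change was -0.12 (SE 0.17, adjusted p = 0.611) with all libraries and -0.30 (SE 0.12, adjusted p = 0.0351) without replicate 3.

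CCND2 was seen mainly in 1 library. It had 2, 2 and 2 counts in the TRIM28 controls and 4, 11 and 143 in the knockdown, so replicate 3 alone carried 11.7 CPM by its raw total (exact 95% binomial interval 9.83 to 13.7, which covers counting error only). That library also had the raised stromal markers (435 CPM), and their part in the CCND2 count was not tested. The gene did not reach the count minimum in enough libraries for the main test, and without that minimum its adjusted p was 0.299.

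CDK4 had 56.8, 55.7 and 60.1 FPKM in the controls and 57.4, 56.6 and 44.1 FPKM in the knockdown, with replicate 3 the lowest of the 6. The test did not pass (log2 fold change -0.20, SE 0.10, adjusted p = 0.181; 95% confidence interval -0.43 to 0.03), nor did it without replicate 3 (-0.10, adjusted p = 0.263). CDK6 went the other way, from 1.14, 1.27 and 1.14 FPKM to 1.77, 1.89 and 3.46 FPKM. All knockdown libraries were above all controls, and replicate 3 was by far the highest. The rise in CDK6 was 0.93 (SE 0.26, adjusted p = 0.0287) with all libraries and 0.54 (SE 0.14, adjusted p = 0.00107) without replicate 3, the library with 435 CPM of stromal markers, so it was 1.91-fold and 1.46-fold. It did not pass without control replicate 1, 2 or 3 (adjusted p = 0.0938, 0.0706 and 0.0907), when a fold change beyond 1.2 was required (0.0714) or in limma on log2 FPKM (0.0859 and 0.114).

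CDKN1B had 39.3, 42.0 and 37.4 FPKM in the controls and 26.6, 27.6 and 35.9 FPKM in the TRIM28 knockdown. Replicates 1 and 2 lay well under the controls and replicate 3 just under them. The fall had a log2 fold change of -0.47 (SE 0.13, adjusted p = 0.0225), and of -0.63 (SE 0.07, adjusted p = 1.83e-09) without replicate 3. It did not pass without control replicate 1, 2 or 3 (adjusted p = 0.0701, 0.107 and 0.0565), without knockdown replicate 1 or 2 (0.0697 and 0.0867), with that fold change required (0.121) or in limma on log2 FPKM (0.0767 and 0.0823). CDKN1C, at 2.38, 1.95 and 2.06 FPKM in the controls and 2.77, 1.75 and 3.12 FPKM in the knockdown, had overlapping groups and a log2 fold change of 0.19 (SE 0.26, adjusted p = 0.621). Its 95% confidence interval of -0.38 to 0.76 does not reach the rise seen in the FOXA1 knockdown, and without replicate 3 the value was 0.00 (-0.52 to 0.53, adjusted p = 0.992).

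CDKN2C stood at 6.59, 5.82 and 6.88 FPKM in the controls and 6.06, 7.49 and 7.84 FPKM in the knockdown, and CDKN2D at 6.67, 6.55 and 5.22 FPKM against 6.99, 6.41 and 8.13 FPKM. Both INK4 genes overlapped between groups, with log2 fold changes of 0.08 (95% confidence interval -0.23 to 0.39, adjusted p = 0.708) and 0.15 (-0.24 to 0.55, adjusted p = 0.562). Without replicate 3 the values were -0.01 (adjusted p = 0.959) for CDKN2C and 0.04 (adjusted p = 0.888) for CDKN2D. RB1 had 14.6, 15.04 and 15.1 FPKM in the controls and 11.7, 10.9 and 14.4 FPKM in the knockdown, all 3 under the controls. Its log2 fold change of -0.35 (SE 0.12, adjusted p = 0.0533) did not pass. Without replicate 3 it did (-0.49, SE 0.08, adjusted p = 4.90e-06), as it did with all 12 libraries in 1 fit (adjusted p = 0.00943) or with no count minimum (0.0176).

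**Figure D3:**
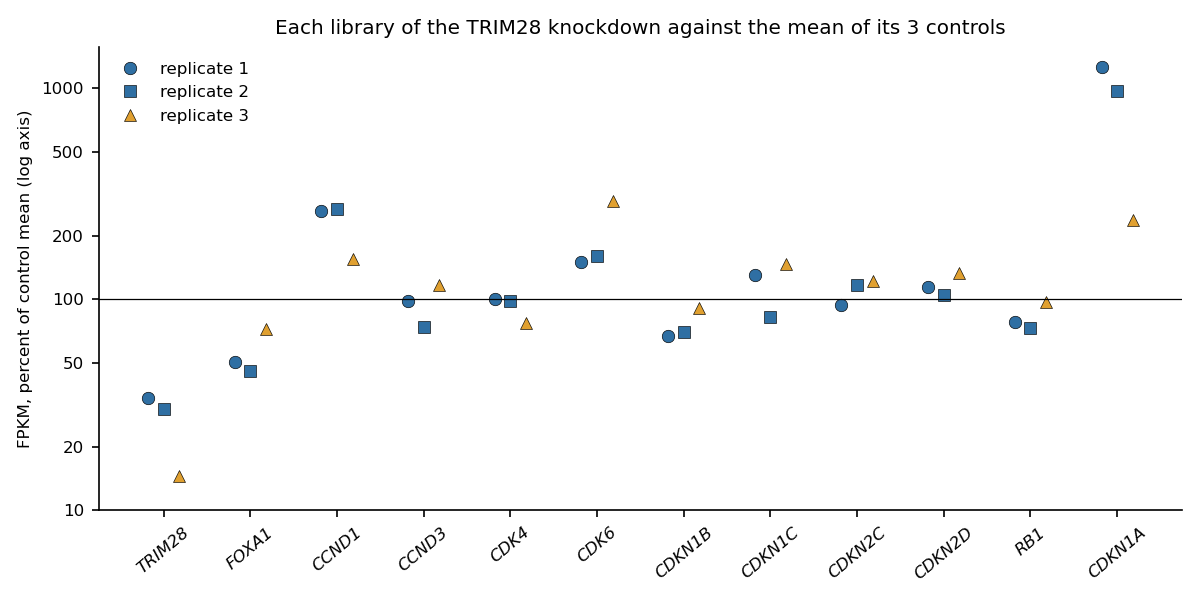
FPKM of each TRIM28 knockdown library as a percentage of the mean of its 3 controls (vertical log axis; the line marks 100) for TRIM28, FOXA1, 9 members and CDKN1A. Replicate 3 has the least TRIM28 but lies nearer to 100 than replicates 1 and 2 for CCND1, CDKN1B, RB1 and CDKN1A. It lies farther from 100 than both for CDK4, CDK6, CDKN1C, CDKN2C and CDKN2D.

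Whether a member responded differently to the knockdowns was tested as the difference between the fitted effects over all 12 libraries. CDK6 and CDKN1C differed, 2 of 9 members, where 10.6% of all 15921 genes tested passed and 5.98% were lower in the TRIM28 effect. With library size alone as the scaling, 59.99% of those calls over all genes were higher, against 43.4% with TMM, and the members again gave 1 higher and 1 lower. CDK6 had the more positive effect in the TRIM28 knockdown, by 1.46 on the log2 scale (SE 0.33, adjusted p = 0.0129; 1.07, SE 0.19, adjusted p = 3.37e-05 without TRIM28 knockdown replicate 3). It passed whichever of the 12 libraries was left out, but not in limma with a pseudocount of 1 (adjusted p = 0.0577). CDKN1C had the more positive effect in the FOXA1 knockdown, with a difference of -1.77 (SE 0.30, adjusted p = 0.000861), and it too passed without any 1 library (-1.95, adjusted p = 1.32e-06 without TRIM28 knockdown replicate 3).

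For the other members the difference did not pass with all libraries. CCND1 differed by -0.29 (95% confidence interval -0.76 to 0.18, adjusted p = 0.452) and by -0.08 (-0.24 to 0.07, adjusted p = 0.486) without replicate 3. CDKN1B differed by 0.31 (0.01 to 0.60, adjusted p = 0.181), CDK4 by -0.13 (-0.42 to 0.15, adjusted p = 0.593) and CDKN2C by -0.31 (-0.69 to 0.08, adjusted p = 0.319). Without replicate 3 these differences were 0.14, -0.03 and -0.40 (adjusted p = 0.246, 0.865 and 0.0836). CCND3 came closest, at -0.65 (SE 0.21, adjusted p = 0.0561), and passed without replicate 3 of the TRIM28 knockdown (-0.83, adjusted p = 0.000169), without control replicate 2 of FOXA1 (-0.76, adjusted p = 0.039), in DESeq2 (adjusted p = 0.0288) and with no count minimum (0.000597). CDKN2D (-0.44, adjusted p = 0.187) and RB1 (-0.36, adjusted p = 0.103) passed only without TRIM28 knockdown replicate 3 (-0.56, adjusted p = 0.0464, and -0.51, adjusted p = 0.000153). Without that library 1 member was higher and 4 were lower in the TRIM28 effect, where 22.5% of all genes passed.

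Sums of FPKM over each protein class describe how the make-up of the checkpoint transcripts shifted; these are descriptions without a test. CCND1 made up 81.9% to 86.3% of the D cyclin transcripts in the controls, 90.1% to 91.2% in the FOXA1 knockdown and 93.0%, 94.7% and 85.6% in the TRIM28 knockdown. CDK6 was a small share of the CDK4 and CDK6 sum throughout, at 1.59% to 2.56% in the controls, 1.40% to 1.80% in the FOXA1 knockdown and 2.99%, 3.23% and 7.27% in the TRIM28 knockdown. The ratio of CCND1 to CDKN1B FPKM lay between 1.53 and 1.63 in the 6 controls, between 6.60 and 7.46 in the FOXA1 knockdown, and at 6.24, 6.12 and 2.72 in the TRIM28 knockdown. No knockdown library overlapped the controls in that ratio.

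The make-up of the CIP/KIP class differed from the controls in both knockdowns. CDKN1A, which encodes p21, had 27.3 to 32.2 FPKM in the controls, 101.01, 98.8 and 95.7 FPKM in the FOXA1 knockdown and 387, 299.9 and 73.2 FPKM in the TRIM28 knockdown. CDKN1B accordingly went from 53.2% to 59.0% of the CIP/KIP sum in the controls to 17.8% to 19.6% in the FOXA1 knockdown and 6.38%, 8.39% and 32.0% in the TRIM28 knockdown. CDKN1C held 2.16% to 3.22% in the controls, 4.91% to 5.56% in the FOXA1 knockdown and 0.666%, 0.532% and 2.78% in the TRIM28 knockdown. The CIP/KIP sum per unit of D cyclin was 0.924 to 1.00 in the controls, 0.669 to 0.696 in the FOXA1 knockdown, and 2.34, 1.85 and 0.983 in the TRIM28 knockdown, so the knockdowns lay on opposite sides of the controls except for TRIM28 replicate 3.

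**Figure D4:**
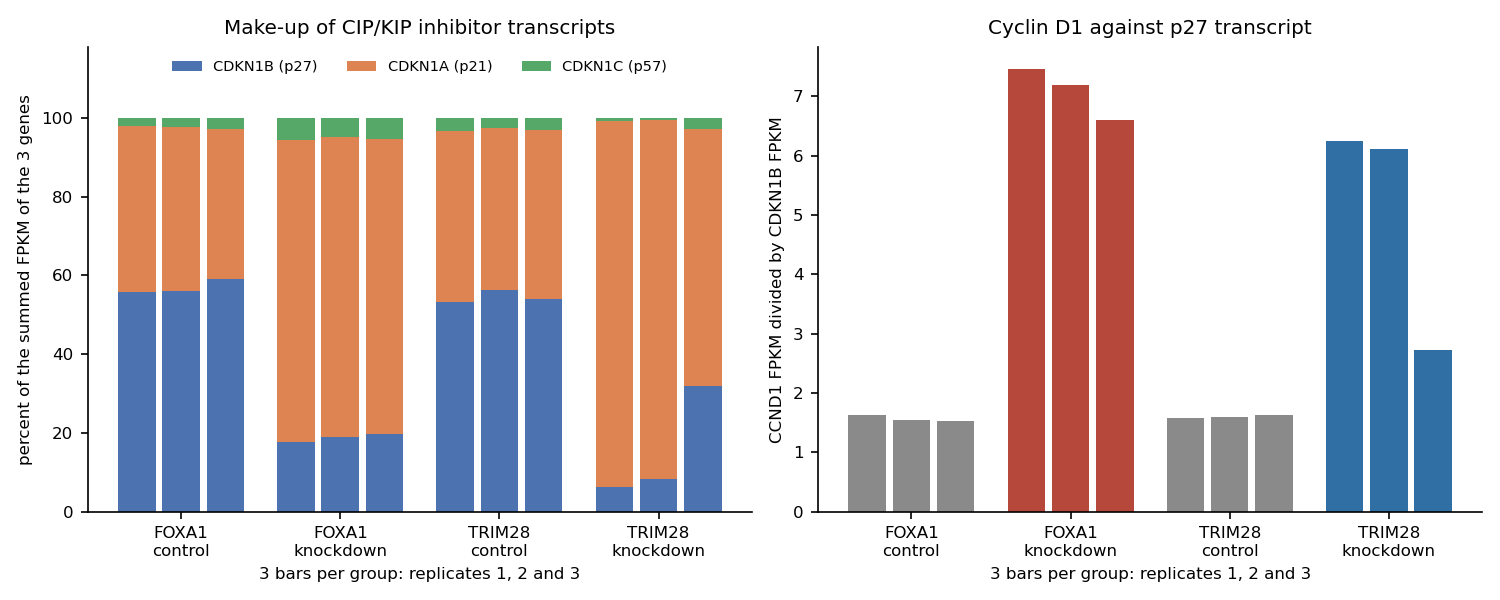
Left, percent of the summed FPKM of CDKN1A, CDKN1B and CDKN1C taken by each gene, with 1 stacked bar per library; right, CCND1 FPKM divided by CDKN1B FPKM, with 1 bar per library from 0. CDKN1B holds more than 53% of the sum in every control and at most 32.0% in every knockdown library, and the ratio is 1.53 to 1.63 in the controls and 2.72 to 7.46 in the knockdowns.

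Another 7 lists of genes of the pathway were read from the same fits. A list is given by its counts and its median, beside the median of all genes tested (-0.02 with FOXA1 knocked down, 0.00 with TRIM28 knocked down and 0.00 for the difference) and the shares of all genes that passed (52.4% with FOXA1 knocked down, 26.7% with TRIM28 knocked down, 45.8% in the latter without replicate 3, and 10.6% for the difference). Some alternative fits called fewer genes, so list counts from them are read against lower totals. With FOXA1 knocked down, 6257 of 15921 genes passed in a joint fit of the 12 libraries. With a fold change beyond 1.2 required, 4305 of 14953 passed there and 1625 of 14981 with TRIM28 knocked down. Of the cyclin E and CDK2 list, 4 of 5 genes rose and none fell in the FOXA1 knockdown (median 0.56), where 26.1% of all genes rose. The count was 3 in a joint fit of the 12 libraries or with a fold change beyond 1.2 required. CCNE1, which encodes cyclin E1, rose by 1.201 (SE 0.13) and CDC25A, the phosphatase that activates CDK2, by 1.44 (SE 0.08). CCNE2, which encodes cyclin E2, rose by 0.56 (SE 0.11) and CCNA2, which encodes cyclin A2, by 0.23 (SE 0.06), while CDK2 itself stood at 0.12 (adjusted p = 0.133). In the TRIM28 knockdown 1 gene of this list rose and 1 fell (median 0.05, or -0.24 without knockdown replicate 3 and -0.01 without knockdown replicate 2). CCNE1 rose by 1.06 (SE 0.24, adjusted p = 0.0103; 1.27 without replicate 3), though not without control replicate 2 or 3, where the adjusted p reached 0.0572. CDK2 fell by 0.71 (SE 0.12, adjusted p = 0.00245; -0.77 without replicate 3), and its effect differed between the knockdowns by -0.84 (SE 0.13, adjusted p = 0.00043). CCNE2, CCNA2 and CDC25A stood at 0.05, -0.18 and 0.27 (adjusted p = 0.816, 0.514 and 0.572). Without replicate 3 CCNA2 fell by 0.47 (adjusted p = 1.05e-05), while CCNE2 stood at 0.05 (adjusted p = 0.777). CDC25A changed sign without that library, to -0.24 (adjusted p = 0.0725).

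Of the 3 other inhibitor genes, CDKN1A and CDKN2B rose in both knockdowns. CDKN1A rose by 1.72 (SE 0.06) in the FOXA1 knockdown and by 2.96 (SE 0.63, adjusted p = 0.0363) in the TRIM28 knockdown, a call kept only without knockdown replicate 3 (3.39) when a library was left out and otherwise lost, with adjusted p up to 0.11. The difference between the effects on CDKN1A was 1.23 (SE 0.67, adjusted p = 0.311), and 1.66 (adjusted p = 2.50e-10) without that library. CDKN2B, which encodes the INK4 inhibitor p15, rose by 3.28 (SE 0.27) and 3.26 (SE 0.45) from 4 to 15 counts per control library, and passed whichever library was left out. CDKN2A, which encodes p16 and ARF from overlapping frames that gene counts do not separate, fell by 0.63 (SE 0.16) in the FOXA1 knockdown and stood at -0.45 (adjusted p = 0.115) in the TRIM28 knockdown.

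Of 12 pocket protein and E2F genes, 4 rose and 3 fell in the FOXA1 knockdown, a share near the 52.4% of all genes that passed. The median was 0.03 (-0.0015 to 0.0634 when a library was left out), and the counts were 2 and 1 with a fold change beyond 1.2 required. In the TRIM28 knockdown 1 rose and 1 fell, where 26.7% of all genes passed (median -0.13), and 2 rose and 5 fell without replicate 3, where 45.8% passed. E2F1, an activating E2F, fell by 0.32 (SE 0.06) and by 1.24 (SE 0.14; -1.42 without replicate 3), a difference of -0.93 (SE 0.15, adjusted p = 0.000794). E2F3, another activating E2F, rose by 0.51 (SE 0.07) in the FOXA1 knockdown and by 0.44 (SE 0.11, adjusted p = 0.0144; 0.52 without replicate 3) in the TRIM28 knockdown, where the call was lost without control replicate 1, 2 or 3 or knockdown replicate 1 (adjusted p up to 0.078). E2F4, a repressive E2F that partners p107 and p130, rose by 0.33 (SE 0.09) in the FOXA1 knockdown and stood at -0.24 (adjusted p = 0.0893) in the TRIM28 knockdown, where it passed without replicate 3 (-0.24, adjusted p = 0.0371). Its effects differed by -0.57 (SE 0.13, adjusted p = 0.00997), in every fit that left out 1 library.

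Among the other E2F genes, E2F5 fell by 0.78 (SE 0.16) and E2F6 rose by 0.48 (SE 0.13) in the FOXA1 knockdown, and they stood at -0.30 and 0.29 (adjusted p = 0.184 and 0.142) in the TRIM28 knockdown. TFDP2, a dimer partner of E2F proteins, fell by 0.15 in the FOXA1 knockdown (adjusted p = 0.0159), though not without knockdown replicate 1 (0.105). E2F2, E2F7, E2F8 and TFDP1 passed in neither knockdown; without TRIM28 knockdown replicate 3, E2F2 fell by 0.62 (adjusted p = 6.91e-05) and TFDP1 by 0.22 (adjusted p = 0.0138). RBL1, which encodes the RB1 relative p107, rose by 0.19 in the FOXA1 knockdown (adjusted p = 0.0451), which did not hold without control replicate 1 or 3 or knockdown replicate 1 or 2 (up to 0.168), while RBL2, which encodes p130, stood at 0.00 (adjusted p = 0.984). In the TRIM28 knockdown RBL1 and RBL2 stood at -0.09 and 0.05 (adjusted p = 0.737 and 0.788), and at -0.35 and 0.18 (adjusted p = 0.00361 and 0.0338) without replicate 3.

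Among 16 E2F target genes of DNA replication, 3 rose and 8 fell in the FOXA1 knockdown (median -0.11), where 26.1% of all genes rose and 26.3% fell. The counts were 1 and 4 in a joint fit of the 12 libraries, where 3168 of all 15921 genes rose and 3089 fell. They were also 1 and 4 with a fold change beyond 1.2 required, where 2259 of all 14953 genes rose and 2046 fell. In the TRIM28 knockdown none rose and 11 fell (median -0.70), where 13.3% of all genes fell. The count of falling genes was 16 without knockdown replicate 3, in a fit where 3580 of all genes fell against 1999 with every library, and 6 or 7 without any of the other 5 libraries, where 874 to 1487 of all genes fell. CDT1, the licensing factor, fell by 0.47 (SE 0.08) in the FOXA1 knockdown and by 1.44 (SE 0.14; -1.64 without replicate 3) in the TRIM28 knockdown, and MCM7, a subunit of the replicative helicase, by 0.48 (SE 0.05) and 1.00 (SE 0.12; -1.17 without replicate 3). RRM2, a subunit of ribonucleotide reductase, rose by 0.87 (SE 0.05) in the FOXA1 knockdown and stood at 0.06 (adjusted p = 0.914) in the TRIM28 knockdown, where without replicate 3 it fell by 0.49. The difference between the effects passed for 6 of the 16, all lower in the TRIM28 effect (5.98% of all genes were lower). Without replicate 3 it passed for 15, in a fit where 2106 of all 15921 genes were lower. With all 12 libraries it passed for 4 in limma on log2 FPKM, where 1247 and 1312 of 22810 genes passed with pseudocounts of 0.1 and 1. With no count minimum it passed for 11, where 1993 of 38196 genes passed.

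Of 11 genes that control the stability of cyclin D and p27, 2 rose and 3 fell in the FOXA1 knockdown, where 52.4% of all genes passed. The median was 0.01 (-0.03 to 0.04 when a library was left out), and the counts were 0 and 1 with a fold change beyond 1.2 required. In the TRIM28 knockdown 3 rose and 2 fell (median 0.06), and 1 rose and none fell with that fold change required. Most of the list acts in degradation, but USP2 encodes a deubiquitinase that stabilises cyclin D1. The symbol KPC1 on that list is an older name of RNF123, which the list also held. SKP2, the F-box protein that targets p27, fell by 0.30 (SE 0.06) and by 0.42 (SE 0.08; -0.41 without replicate 3), and its cofactor CKS1B by 0.35 (SE 0.06) and by 0.62 (SE 0.17, adjusted p = 0.0311, lost without any library other than knockdown replicate 3, up to 0.114). FBXO4, an F-box gene, fell by 0.77 (SE 0.15) in the FOXA1 knockdown, the largest change on the list there, and stood at -0.35 (adjusted p = 0.163) in the TRIM28 knockdown. The 3 genes that rose with TRIM28 knocked down were USP2 (0.93, SE 0.22, adjusted p = 0.0108), the scaffold gene CUL1 (0.28, SE 0.08, adjusted p = 0.0267) and SKP1 (0.74, SE 0.23, adjusted p = 0.0358), the last named after its value was seen. The USP2 call was lost without control replicate 1 or 3 or knockdown replicate 2 (up to 0.0571), and that of CUL1 without control replicate 1, 2 or 3 or knockdown replicate 2 (up to 0.106). That of SKP1 held only without knockdown replicate 3 when a library was left out (up to 0.153 otherwise). SKP1 was also low, at 0.577 to 1.46 FPKM in the TRIM28 control and knockdown libraries, against 29.7 to 39.9 FPKM for CUL1.

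Of the 3 genes of the CDK activating kinase, CCNH and MNAT1 fell by 0.78 (SE 0.08) and 0.64 (SE 0.09) in the FOXA1 knockdown and none passed in the TRIM28 knockdown, with or without replicate 3. Their effects differed between the knockdowns, by 0.59 (adjusted p = 0.00461) and 0.56 (adjusted p = 0.016; 0.0521 without TRIM28 control replicate 1). Of the DREAM and MuvB list, 1 of 5 rose and 2 fell in the FOXA1 knockdown, where 52.4% of all genes passed. Its median of -0.32 was not stable, at 0.02 without knockdown replicate 1 and -0.14 without control replicate 1, and the counts were 1 and 0 in a joint fit of the 12 libraries and 0 and 0 with a fold change beyond 1.2 required. In the TRIM28 knockdown 1 of 4 fell (median -0.16), and 3 fell without replicate 3. With every library that gene was LIN9, a MuvB core subunit, at -0.75 (SE 0.19, adjusted p = 0.0173; -1.01 without replicate 3), lost without control replicate 2 or 3 or knockdown replicate 2 (up to 0.077).

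**Figure D5:**
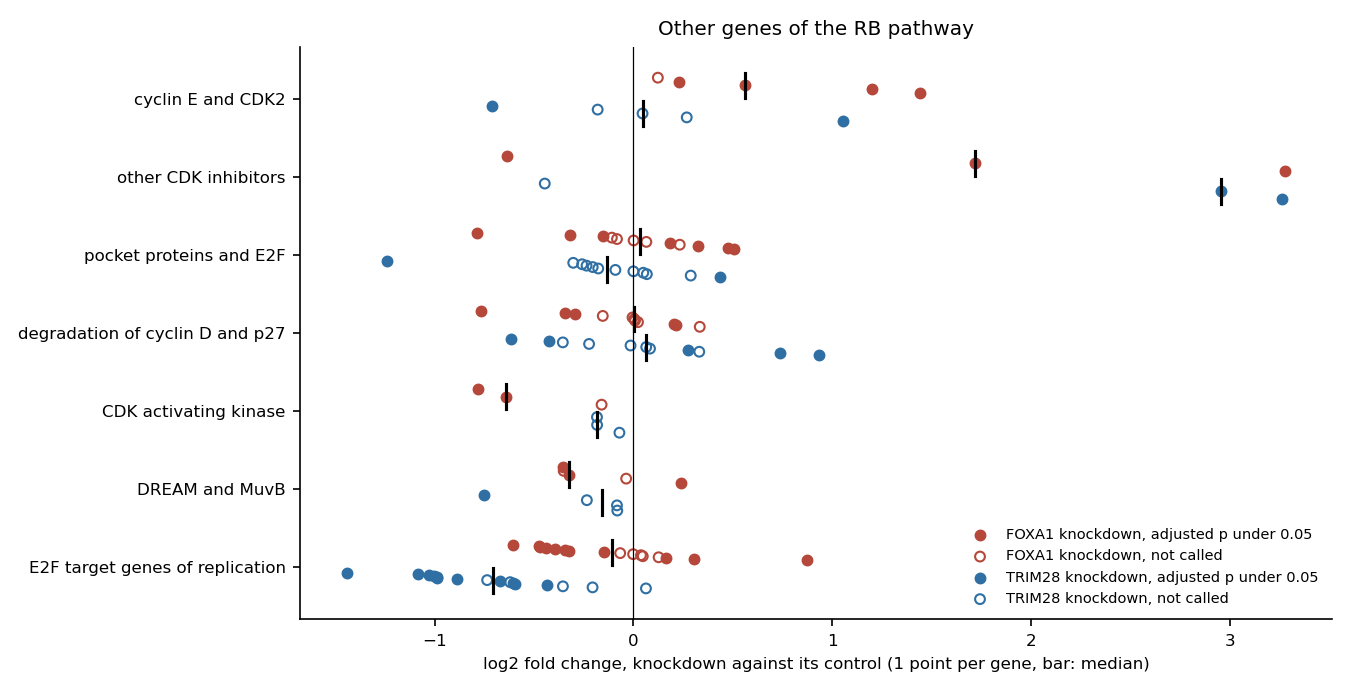
Fitted log2 fold changes (horizontal axis) of the genes on 7 pathway lists, with 1 point per gene, filled where the adjusted p is under 0.05, and a bar at the list median. The replication list has its median at -0.11 in the FOXA1 knockdown and -0.70 in the TRIM28 knockdown, and the cyclin E and CDK2 list at 0.56 and 0.05.

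The genes whose levels followed CCND1 most closely over the 12 libraries, among 10636 candidates, were CHST2, a sulfotransferase gene (Pearson r = 0.996), HES2, a basic helix-loop-helix repressor gene (0.996), and CDC42BPB, a kinase gene (0.993). CHST2 averaged 3.99 and 2.84 CPM in the FOXA1 and TRIM28 controls, 54.3 CPM in the FOXA1 knockdown and 29.4 CPM in the TRIM28 knockdown. Among those that followed CDKN1C most closely were MFSD2A, a lipid transporter gene (0.969), and CANT1, a nucleotidase gene (0.964). MFSD2A averaged 4.21 and 4.97 CPM in the controls, 21.6 CPM in the FOXA1 knockdown and 4.48 CPM in the TRIM28 knockdown. The libraries fall into 4 groups, so these coefficients describe shared group differences and carry no p.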

How the data were processed

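Poly(A) RNA of LNCaP cells was sequenced in 12 libraries, per the labels' protocols. The authors deposited unnormalized counts of reads for each gene symbol, in a separate table for each knockdown and its control, and FPKM for all libraries. Per the submitters' processing notes, GRCh38 (hg38) was used. Which aligner, counter, strand setting and annotation were used is not given in the sources used here. From each count, a fixed gene length and the library's sum, the deposited FPKM could be recomputed for all 17566 genes with a count in every library (relative tolerance 0.001). Symbols repeated on several lines were kept once. Titles gave the control groups and treatment labels the knockdown groups, since genotype labels of some replicates name other genes. Titles of the knockdown libraries read "SH control" and their column names begin with SI, while their treatment labels say shRNA.

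Counts were fitted with edgeR 4.0.16 in R 4.3.3: TMM scaling, genes kept by filterByExpr with count 10 and total 15 as minimums, two-sided quasi-likelihood F-tests with robust dispersions, Benjamini-Hochberg adjustment over all genes tested, threshold 0.05. Each knockdown was fitted with its own control (6 libraries); the difference between effects used all 12. Leave-one-out fits kept the genes of the full fit. Alternatives were DESeq2 1.42.0, its size factors in edgeR, library size alone, no count minimum, a replicate block, 1 fit of all libraries, a minimum fold change of 1.2, and limma 3.58.1 on log2 FPKM with pseudocounts of 0.1 and 1 (mean FPKM of at least 0.1). With 12256092 to 15152890 counts per library, a gene under about 10 counts per library could not be tested in the main fits. The fits were also run on simulated counts, and the outcome is not reported here. All simulated replicates of a group were drawn from the same proportions, so no library stood apart as TRIM28 knockdown replicate 3 does. The text names all 10 members, any gene of the 3 lists on cyclin E, inhibitors and E2F, some of the up to 4 genes of smallest p of each other list, and the 3 genes most correlated with CCND1 and with CDKN1C (mean of at least 5 CPM, prior of 0.5 CPM), of which 1 is not reported here. Members and lists were chosen with earlier results of these data known.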

Additional observations from a re-analysis of the deposited data

Results flagged for a closer look

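The effects of the knockdowns on CDK6 differed in the test of the difference itself, by 1.46 on the log2 scale (SE 0.33, adjusted p = 0.0129 by edgeR): all 3 libraries of the FOXA1 knockdown lay under their controls and all 3 of the TRIM28 knockdown above theirs. Without TRIM28 knockdown replicate 3, which held the raised stromal markers, the difference was 1.07 (adjusted p = 3.37e-05). The effects on CDKN1C also differed, by -1.77 (SE 0.30, adjusted p = 0.000861 by edgeR), with all 3 libraries of the FOXA1 knockdown above their controls and the TRIM28 knockdown overlapping its own.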

How the results depend on the processing

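Of the alternative fits of single members, 529 kept direction and side of the threshold, 19 lost a call, 12 gained one and 7 turned direction. The turns were in members near 0: when a library was left out, RB1 in the FOXA1 knockdown ranged from -0.0364 to 0.0452, CCND3 and CDKN2C in the TRIM28 knockdown from -0.301 to 0.04 and from -0.0097 to 0.192, and CCND3 between the controls from -0.0909 to 0.128. Counts over all genes moved by more than 1.5 times in some fits. In the FOXA1 knockdown, 4305 genes passed with a minimum fold change of 1.2, against 7840. In the TRIM28 knockdown, 1625 passed with that minimum and 2658 and 2508 in limma (pseudocounts 0.1 and 1), against 3993. Leaving out any 1 library there other than knockdown replicate 1 gave 1877 to 6867. For the difference, 3583 passed without TRIM28 knockdown replicate 3, against 1683. Leaving out any other library moved that count less, to 1199 to 1947. Between the controls, 2 and 1 passed in limma, 8 with no count minimum and 0 to 1 when a library was left out, against 0. The highest counts were those without TRIM28 knockdown replicate 3. The cause was not tested. Correlations between the deviations of same-numbered libraries were -0.02, 0.02 and 0.11 for FOXA1 and 0.02, -0.08 and 0.01 for TRIM28. So few values cannot decide whether the numbers pair the samples, and the main fits did not pair them. With the replicate block, 7997, 3846, 1597 and 0 genes were called in the FOXA1 knockdown, the TRIM28 knockdown, the difference and the controls, and RB1 in the TRIM28 knockdown (adjusted p = 0.0448) and CCND3 in the difference (0.0422) passed. CCND2 did not reach the count minimum of the main fits at this depth, and p-values measure only the spread between these replicates of 1 cell line.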
